A study of Mus musculus with 6 samples.

Results

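The cytosolic ribosomal protein genes measured here were 42 of the 18193 genes with a probe set of their own on the array, 22 of the large ribosomal subunit and 20 of the small one. They were chosen by symbol alone: every Rpl, Rps and Rplp gene and Rpsa, without the Rps6k kinases, where the platform annotation gave the probe set 1 symbol, and the probe set with the highest mean over the 6 arrays stood for each gene. The choice used no difference between groups. Gene expression had been measured on Affymetrix arrays in laser-microdissected optic fissure, the ventral groove of the optic cup that closes during eye development, from C57BL/6J mouse embryos at E11.5. All embryos carried loxP sites on both alleles of the FGF receptor genes (Fgfr1fx/fx;Fgfr2fx/fx): the 3 control arrays came from Six3Cre- tissue and the 3 FGFR mutant arrays from Six3Cre+ tissue, in which Cre recombinase is driven by Six3 regulatory sequence in the early eye field and forebrain, so that cells outside that domain keep their receptors. Arrays are called here by the number in their title, 8711, 9216 or 9266, each shared by a control and a mutant. Whether a sample was 1 embryo or a pool is not stated, so the p-values cover only how these samples scatter, and that scatter may be technical.

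Ribosomal proteins assemble with ribosomal RNA into the small subunit, which reads the messenger RNA, and the large subunit, which joins amino acids. Each protein is present in about the same number per ribosome, and their messenger RNAs are short, abundant in growing cells and controlled together. Many of these messengers begin with a run of pyrimidines at their 5′ end (the TOP motif), through which the mTOR pathway sets their translation, a step that an array of RNA levels does not read.

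The starts of these genes shared sequence features that the choice by symbol did not use. RefSeq promoter windows (GRCm38.p6, 250 bases before to 50 after the start) matched 37 of the 42 genes by symbol, and the first window listed was used where a gene had several. The stretches of 50 bases shown here, 30 before and 20 from the annotated start on, belong to members with strong signal in every array and to members that the results below return to (Rpl4, Rps10, Rps24 and Rpl12). Capitals mark the longest run of C and T that reaches into the interval from 10 bases before to 20 bases after the start.
Rpl13a, chr7:45128726-45128775, minus strand: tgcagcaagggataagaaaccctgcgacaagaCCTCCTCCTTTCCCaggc
Rps18, chr17:33955646-33955695, minus strand: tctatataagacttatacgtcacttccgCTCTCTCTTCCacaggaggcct
Rpsa, chr9:120127736-120127785, plus strand: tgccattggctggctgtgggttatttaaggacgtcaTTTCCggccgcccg
Rps4x, chrX:102189372-102189421, minus strand: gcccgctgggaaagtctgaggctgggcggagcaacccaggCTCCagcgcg
Rplp2, chr7:141447621-141447670, plus strand: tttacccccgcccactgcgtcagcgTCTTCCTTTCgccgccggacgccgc
Rpl38, chr11:114668550-114668599, plus strand: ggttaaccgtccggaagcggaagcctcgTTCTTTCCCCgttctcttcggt
Rpl4, chr9:64173357-64173406, plus strand: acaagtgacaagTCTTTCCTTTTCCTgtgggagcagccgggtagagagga
Rps10, chr17:27635225-27635274, minus strand: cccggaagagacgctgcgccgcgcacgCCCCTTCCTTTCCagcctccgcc
Rps24, chr14:24490648-24490697, plus strand: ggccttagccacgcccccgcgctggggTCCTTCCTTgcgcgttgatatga
Rpl12, chr2:32961682-32961731, plus strand: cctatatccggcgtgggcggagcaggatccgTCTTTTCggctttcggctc
A run of at least 6 pyrimidines on the coding strand reached into that interval in 24 of the 37 promoters (64.9%). These were 15 of 20 of the large and 9 of 17 of the small subunit. The full length of a run was counted, also where part of it lay outside the interval. In some members, among them Rpl4 and Rps25, the run ended before the annotated start. Over all 27025 genes of the table the share was 36.3%, and over the 17492 protein-coding ones 35.5%. The longest run in a member was 21 bases, in Rpl7a. Rpsa and Rps4x are shown as members without a run of at least 6 reaching into the interval.

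The letters CCGGAAG, a sequence that transcription factors of the ETS family can bind, were searched on both strands of the whole windows. They were found in 18 of the 37 promoters (48.6%), against 11.9% of protein-coding and 9.12% of all promoters in the table. The match nearest the start is in capitals in these members, written on the coding strand, where a site on the other strand reads CTTCCGG.
Rps18, chr17:33955724-33955750, minus strand: gaagcaatttCCGGAAGtggacctccg
Rplp2, chr7:141447533-141447559, plus strand: aaatgtcttcCTTCCGGtgcacccttt
Rpl38, chr11:114668550-114668576, plus strand: ggttaaccgtCCGGAAGcggaagcctc
Rps10, chr17:27635257-27635283, minus strand: gccgcgcagcCCGGAAGagacgctgcg
Rpl19, chr11:98026661-98026687, plus strand: cttagcgtgaCTTCCGGctacccagag
Rps6, chr4:86857442-86857468, minus strand: taatctacgcCCGGAAGtaacgcccct
The match began 75 bases before the start in Rps18, 108 in Rplp2, 20 in Rpl38, 29 in Rps10, 39 in Rpl19 and 91 in Rps6. Both the pyrimidine run and CCGGAAG were present in 14 members and neither in 9. Of the other motifs searched on both strands, the palindrome CTCGCGAG was in 5 of 37 members (13.5%) and 0.958% of all promoters, ATGGCGG in 5 (13.5%) and 4.19%, and TATAAA in 4 (10.8%) and 14.2%. CCGGAAG, CTCGCGAG and ATGGCGG contain the letters CG. The median count of CG per window was 22 in the members, 13 in protein-coding genes and 7 in all genes. The part of this base composition in the shares above was not tested. These are matches of letters, not measured binding.

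The arrays were not of equal quality. Mutant 8711 stood apart: signal from the 3 prime end of Gapdh exceeded that from the 5 prime end 93.6-fold, against 15-fold in control 9266 and 4.26- to 9.73-fold in the other 4 arrays. The gap was smaller for Actb, with a ratio of 14.8 in mutant 8711 and of 6.03 to 12.1 in the other 5 arrays. The median intensity of mutant 8711 was 18.1, and that of the other 5 arrays ran from 28.6 to 34.5. Between genotypes the Gapdh ratio gave a two-sided exact permutation p of 0.7, where 3 against 3 arrays cannot go below 0.1. As lists, markers of several tissues differed between the genotypes, but no single marker passed an adjusted p of 0.05 in limma's test. The summed intensity of 14 periocular mesenchyme markers ran from 1407.4 to 3000.2 in the controls and from 3394.0 to 4299.8 in the mutants, with 14 of 14 higher, and that of 14 macrophage markers from 1914.3 to 2761.7 and from 2987.0 to 3776.0, with 10 of 14 higher. Of the optic cup markers 14 were measured, 11 of them lower in the mutants (Six6 at a log2 difference of -1.11 and Fgf15 at -1.74). The other 3 were higher, by up to 0.907. Groups were fully separated in 8 of the lower and 1 of the higher optic cup markers. Of the pigment epithelium markers 12 of 13 were higher (Rab38 at 1.25 and Tfec at 1.33). Median log2 differences were 0.33 for 8 erythroid, -0.062 for 10 endothelial, -0.42 for 10 lens and surface ectoderm and -1.09 for 6 neuronal markers. The lens and surface ectoderm list was mixed, with 3 markers higher and 7 lower. Groups were fully separated in 2 of its markers (20%), both higher, against 14.8% of the genes tested. Among the higher ones, Krt18 and Krt8 had 1.345 and 0.806 without mutant 8711. Without mutant 8711 the endothelial median was 0.18 and the erythroid one 0.13. None of these lists had a marker listed at 0 in every array. The part of these shifts in the values below was not tested, and in bulk tissue fewer cells of a type and less RNA per cell cannot be told apart.

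Ribosomal protein transcripts gave strong signal in every array. Of the 42 genes, 33 had a mean intensity over 1000 and 31 over 5000. Of all signal on an array, the probe sets of the 42 genes made up a mean of 2.74% ± 0.19 in the control and 2.74% ± 0.12 in the mutant group (SD, n = 3 each). By array the share was 2.7, 2.57 and 2.95% in controls 8711, 9216 and 9266 and 2.77, 2.61 and 2.85% in the mutants in the same order. The groups overlapped, and in each group the 9216 array was lowest and the 9266 array highest. A probe set's signal depends on its probes as well as on its transcript, so these intensities are compared between arrays and not between genes.

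**Figure D1:**
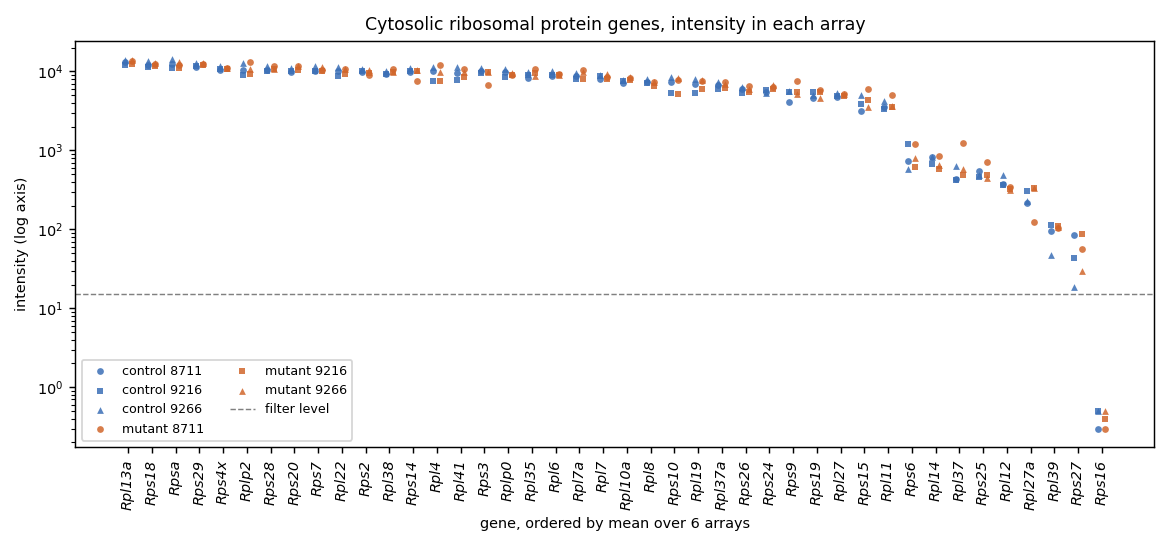
Intensity of the 42 cytosolic ribosomal protein genes in each of the 6 arrays, on a log axis, with genes ordered by their mean; blue marks are control and orange marks mutant arrays, and the mark's shape gives the title number. In the 33 genes above 1000 the 6 marks of a gene lie close together, the dimmest genes spread more, and Rps16 lies below the dashed filter level of 15.1.

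One member gave no usable signal. Rps16, a protein of the small subunit, had 0.3, 0.5 and 0.5 in the control arrays and 0.3, 0.4 and 0.5 in the mutant arrays, so its only single-symbol probe set was at background and was not tested. The filter kept the other 41, with Rps27 and Rpl39 the dimmest of them. Rps27, a zinc-binding protein of the small subunit, had 84.1, 43.4 and 18.5 in controls 8711, 9216 and 9266 and 57.1, 87.2 and 29.4 in the mutants. Rpl39, which lines the exit tunnel of the large subunit, had 96.3, 113.4 and 48.0 and then 105.2, 110.5 and 105.7. In both genes control 9266 was the lowest array of its group, and the groups overlapped.

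No cytosolic ribosomal protein gene passed the test between control and FGFR mutant optic fissure, and most measured differences were small. In limma's test over all 27022 probe sets, 0 of the 41 members passed an adjusted p of 0.05, as did 0% of all probe sets, and the smallest adjusted p of a member was 0.852. At an unadjusted p under 0.05 there were also 0 members, against 6.9% of the 12282 genes tested and 5.57% of all probe sets. The log2 differences ran from -0.28 to 0.54 with a median of 0.031, and the median over all genes tested was 0.03. A difference under 0.1 in either direction was measured for 27 of 41 members and for 21.3% of all genes. Most of those genes were dimmer than the members. With a mean log2 of at least 12, it was measured for 25 of 32 members and 47.2% of the 159 other genes. The 2 genotypes were fully separated in 2 of the 41 members (4.88%), against 14.8% of the genes tested and 13.5% of all probe sets. These were Rps24, with the mutants above (9.39% of genes and 7.08% of probe sets), and Rpl12, with the mutants below (5.45% and 6.39%).

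How large a change could have been missed differs between the members. The 95% interval of the difference lay within 0.5 on either side of 0 for 25 of the 41, against 3.26% of all genes tested, and within 1, a doubling or halving in linear terms, for 37, against 46.8%. For Rps4x, the X-linked small subunit gene, the 3 control arrays had 10486.8, 10854.1 and 11613.5 and the mutants 11029.6, 10728.2 and 11138.3, and the interval of the difference ran from -0.21 to 0.21. For Rpl27a, Rpl37, Rpl39 and Rps27, all with dim probe sets, it reached beyond 1, in Rps27 from -1.14 to 1.84. Signal strength went with this precision: the 32 members with a mean log2 of at least 12 had a median absolute difference of 0.054 and a median SD within groups of 0.12, and the 159 other genes that bright had 0.11 and 0.15.

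**Figure D2:**
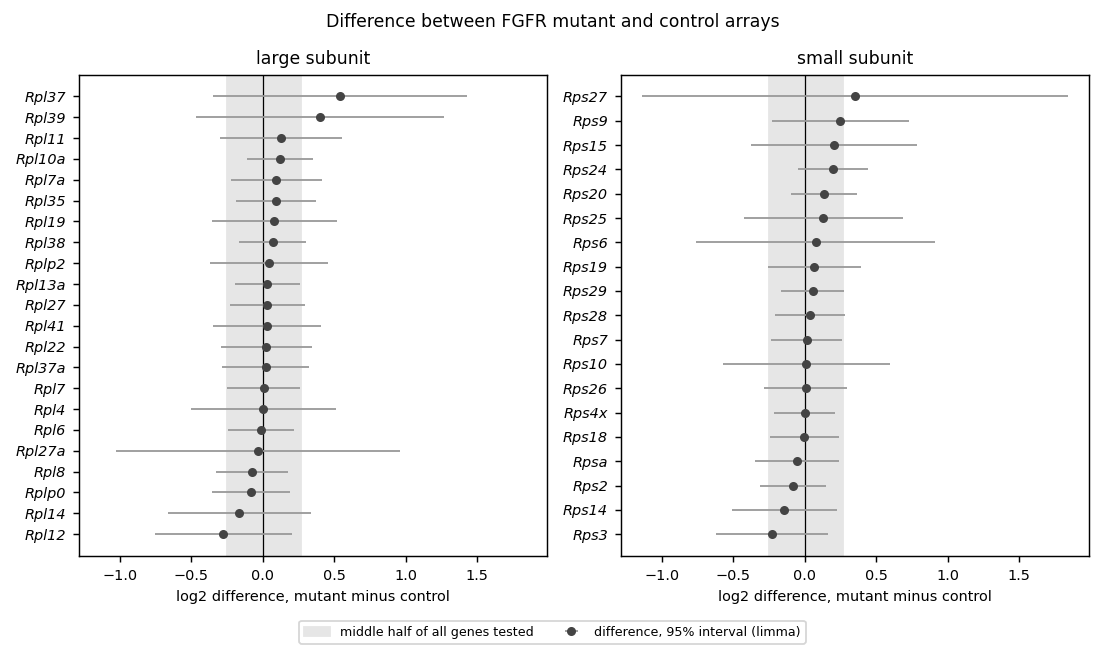
Log2 difference, mutant minus control, of the 22 large subunit (left) and 19 small subunit genes tested (right), with 95% intervals from limma, 3 arrays per group; the grey band holds the middle 50 percent of all 12282 genes tested. Every interval crosses 0, and the widest belong to the dim probe sets of Rps27, Rpl27a, Rpl37 and Rpl39.

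The medians of the large and the small subunit lay close together. The median difference was 0.031 for the large and 0.037 for the small subunit. In the mutants 16 of 22 (72.7%) and 13 of 19 members (68.4%) were higher, against 53.3% of all genes tested. The chosen, tested probe sets of the large subunit held 1.38% ± 0.12 of all signal in the controls and 1.4% ± 0.091 in the mutants (SD, n = 3 each). Those of the small subunit held 1.36% ± 0.08 and 1.35% ± 0.054. Relative to the control mean, the large minus the small subunit median was 0.02, -0.10 and 0.015 in controls 8711, 9216 and 9266, and 0.021, -0.097 and 0.029 in the mutants in that order. Both 9216 arrays were thus low in the large subunit relative to the small one, whatever their genotype.

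That 29 of 41 members (70.7%) were higher in the mutants depended on single arrays. The share higher was 53.3% over all genes tested and 62.3% over the 159 other genes with a mean log2 of at least 12. Without mutant 8711, 20 members were higher and 21 lower, and without both 8711 arrays 11 were higher and 30 lower. Without control 9216, 19 were higher. Compared within a title number, 33 of 41 members were higher in the mutant for 8711, 28 for 9216 and 10 for 9266. The shares of all genes tested were 53.2, 55.7 and 50.9% in that order. The medians of the members were 0.11, 0.036 and -0.091, and 7 members had the same sign in all 3. Scaling moved the split too, to 22 higher and 19 lower with quantile normalization and to 37 and 4 with median centring, which raised the median of all genes from 0.03 to 0.14 and left the members 0.001 above it.

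Among the proteins of the large subunit, the widest differences belonged to dim probe sets. Rpl37, a small zinc-binding protein, had 433.0, 424.2 and 628.2 in controls 8711, 9216 and 9266 and 1232.5, 490.7 and 589.6 in the mutants, and the log2 difference was 0.54 (SE 0.38). One array, mutant 8711, stood far above the rest, and the other mutant arrays lay within the control range. Without it the difference was 0.14. Rpl12, at the base of the stalk that receives elongation factors, had 375.4, 360.3 and 482.0 and then 347.8, 328.8 and 319.2. Every mutant array was below every control array, but the difference of -0.28 (SE 0.20) had an adjusted p of 0.852. Rpl14 had a difference of -0.17 (SE 0.21), with 825.0, 674.1 and 814.0 across the control and 847.3, 580.9 and 652.2 across the mutant arrays, where mutant 8711 was the highest array of all.

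The stalk proteins themselves, which recruit elongation factors to the large subunit, had small differences. Rplp0 averaged 9746.3 ± 1108.6 in control and 9167.2 ± 330.8 in mutant arrays (SD, n = 3 each), and the log2 difference was -0.083 (SE 0.11). Rplp2 averaged 10743.8 ± 1930.9 and 11059.3 ± 1859.7 (SD, n = 3 each), with a log2 difference of 0.044 (SE 0.18). Rplp1 had no single-symbol probe set and was not analysed here.

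Several large subunit proteins are known for roles outside bulk translation, and none of them passed the test. Rpl11, which can bind and inhibit Mdm2 when ribosome assembly fails, had 3591.8, 3316.0 and 4231.6 across the control and 5038.0, 3548.9 and 3670.5 across the mutant arrays, a difference of 0.13 (SE 0.18) with mutant 8711 the highest. Rpl38, whose loss in mice alters the translation of Hox messengers, averaged 9666.3 ± 536.5 and 10140.5 ± 610.8 (SD, n = 3 each), with a log2 difference of 0.069 (SE 0.099). Rpl13a, which can leave the ribosome to silence inflammatory messengers, had a difference of 0.032 (SE 0.096), Rpl10a of 0.12 (SE 0.099), Rpl8 of -0.077 (SE 0.11) and Rpl6 of -0.015 (SE 0.098).

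Among the small subunit proteins, Rps24 was the member with the smallest p. It is one of the genes mutated in Diamond-Blackfan anaemia. Its probe set had 5462.0, 5780.7 and 5408.8 in controls 8711, 9216 and 9266 and 6355.0, 6056.4 and 6688.5 in the mutants. All mutant arrays were above all control arrays, by a log2 difference of 0.20 (SE 0.10), with an unadjusted p of 0.101 and an adjusted p of 0.852 in limma. The next 3 Rps24 probe sets by intensity had differences of 0.21, 0.34 and 0.27, each with overlapping groups, and a dim one, not marked as open to cross-hybridisation, -0.14 (SE 0.33).

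Rps3 and Rps14 were low in 1 mutant array only. Rps3, at the entry of the messenger channel, had 10056.0, 9683.9 and 10960.8 across the control and 6802.6, 9788.9 and 9925.5 across the mutant arrays, a difference of -0.23 (SE 0.17). Rps14, a protein of the platform of the subunit, had 9832.1, 10027.1 and 11126.6 and then 7474.3, 10282.5 and 10579.7, a difference of -0.14 (SE 0.15). In both genes mutant 8711 was the lowest array and mutants 9216 and 9266 lay within the control range. The opposite held for Rps9 and Rps15, in which mutant 8711 was the highest of the 6 arrays. Rps9 had 4119.0, 5539.6 and 5689.5 and then 7667.3, 5524.8 and 5134.3, and Rps15 had 3149.2, 3850.4 and 5051.5 and then 5966.3, 4395.8 and 3573.4. Without mutant 8711 the difference was -0.052 for Rps3, 0.016 for Rps14, 0.073 for Rps9 and 0.008 for Rps15, against 0.25 and 0.20 with it for Rps9 and Rps15.

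Rpsa, which assembles into the small subunit and is also known as a laminin receptor, averaged 12569.9 ± 1616.7 in control and 12062.2 ± 914.7 in mutant arrays (SD, n = 3 each), and the log2 difference was -0.054 (SE 0.12). Rps6, the substrate of the S6 kinases and so a common readout of mTOR activity as a phosphoprotein, was measured by a dim probe set with 725.4, 1193.0 and 580.2 across the control and 1205.0, 616.6 and 793.8 across the mutant arrays. The spread within each group exceeded the difference of 0.077 (SE 0.35). Rps20 had a difference of 0.135 (SE 0.097), Rps25 of 0.13 (SE 0.23) and Rps2 of -0.082 (SE 0.098), all with overlapping groups.

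Over all members, mutant 8711 was above the other 5 arrays in 16 of the 41 and below them in 4, while over all genes tested the shares were 30.4% and 26.7%. Control 9266 was the highest array in 18 of the 41, against 16.4% of the genes tested. Control 9216 was the lowest in 15 of the 41, against 21.3%. The 2 arrays numbered 9216 were the lowest 2 of the 6 in 14 members (34.1%), 10 of the large and 4 of the small subunit, against 16.9% of the genes tested. Rps10, a small subunit protein, had 7463.1, 5271.1 and 8617.0 across the control and 7874.6, 5254.4 and 8374.6 across the mutant arrays. Rpl4, which forms part of the exit tunnel, had 10197.8, 7664.1 and 11346.4 and then 12032.2, 7588.3 and 9748.5. In both genes the gap between the 9216 arrays and the others was larger than the difference between genotypes, which was 0.011 (SE 0.25) for Rps10 and 0.002 (SE 0.21) for Rpl4. Rpl19, Rpl41, Rplp2, Rpl22 and Rpsa were also among the 14.

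**Figure D3:**
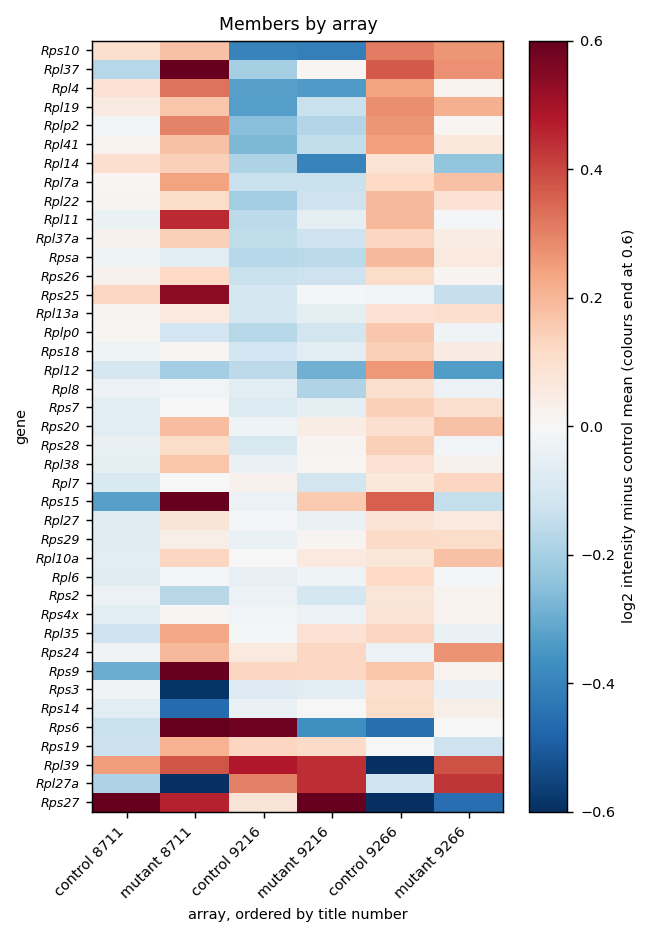
Log2 intensity of the 41 members tested in each array minus the mean of the 3 control arrays, with arrays side by side by title number and genes ordered by how low the 9216 arrays were. Rps10, Rpl4 and Rpl19 near the top are low (blue) in both 9216 arrays, mutant 8711 is high for Rps9 and Rps15 and low for Rps3 and Rps14, and the dim Rps27, Rpl39, Rpl27a and Rps6 vary in most arrays.

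Different probe sets of 1 gene did not always give the same difference. The 42 genes had 94 single-symbol probe sets, of which 85 passed the filter. Of the 44 tested probe sets that did not represent their gene, 16, in 9 of 18 genes, had the opposite sign to the one that did, and 10 of these were more than 0.3 apart from it. None of the 85 was called. Among the 67 probe sets with a mean over 1000, 64 had a difference within 0.3 of 0 and the median was 0.025. Among the 18 dimmer ones 10 did, the median was -0.15, and 4 had all mutant arrays below all control arrays and 0 the reverse. Among the 67 brighter ones 1 had all mutant arrays below and 2 had them above. Over all probe sets tested the shares were 6.39% below and 7.08% above.

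Rpl22, an RNA-binding protein of the large subunit, showed the widest disagreement. Its brightest probe set had 10180.8, 8704.4 and 11514.0 across the control and 10853.8, 9234.8 and 10705.3 across the mutant arrays, a difference of 0.024 (SE 0.14). Another had 2769.3, 2454.1 and 2733.5 and then 944.7, 1990.1 and 2062.2, a difference of -0.75 (SE 0.31) without overlap and with an adjusted p of 0.852. The third had 3799.7, 2048.6 and 4262.9 and then 7159.5, 1780.8 and 1735.4, with mutant 8711 highest and the other mutants lowest. Mutant 8711 was thus the lowest array in one Rpl22 probe set and the highest in another.

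Rpl41, the shortest protein of the ribosome, had differences of 0.03 (SE 0.16) and -0.059 (SE 0.38) in its brighter and of -0.56 (SE 0.28) and -0.47 (SE 0.20) in its dimmer probe sets. In the dimmest, the control arrays had 544.9, 450.2 and 430.6 and the mutants 310.3, 358.8 and 354.5, without overlap. The Rps10 probe sets ran from -0.67 (SE 0.29), in the dimmest, with a control mean of 96.6, to 0.029 (SE 0.30). Rps29 had 0.054, 0.13 and 0.205 in its 3 probe sets, and the groups did not overlap in the second.

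**Figure D4:**
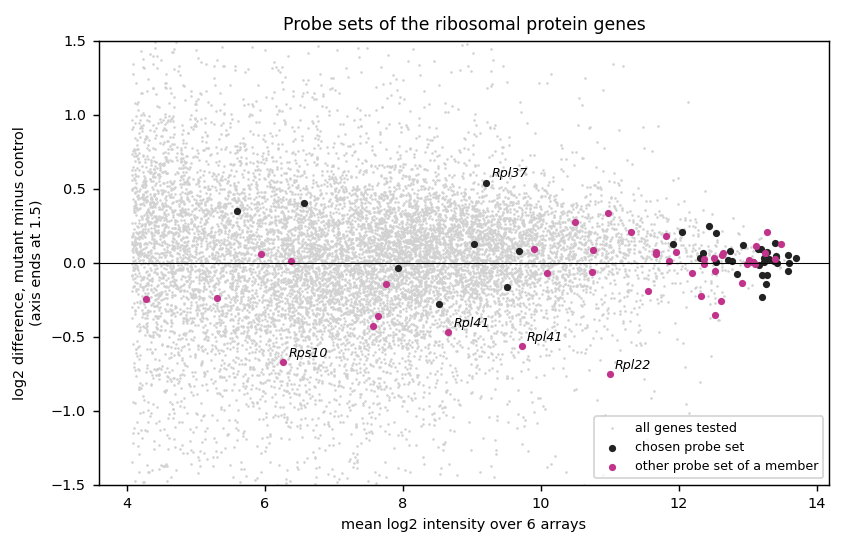
Mean log2 intensity and log2 difference, mutant minus control, of the 85 tested probe sets of the ribosomal protein genes, over all 12282 genes tested in grey; black marks are the probe sets that represent a gene and magenta marks its others. Bright probe sets lie near 0, and the outlying ones are dimmer probe sets of Rpl22, Rpl41, Rps10 and Rpl37.

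Ribosomal protein genes have many processed pseudogenes, and the probe sets carry this. Of the 42 chosen probe sets 14 have an identifier ending in _x_at, the manufacturer's mark for probes that may bind other sequences, and 1 in _s_at, for probes shared between transcripts. A further 110 probe sets listed a cytosolic ribosomal protein symbol together with other symbols, often a pseudogene, and 27 ribosomal protein symbols occurred only there. They were not assigned to a gene. Of these, 104 were tested and 0 were called. In the mutants 71 (68.3%) were higher and 33 lower, against 53.3% of all genes tested higher. Their median was 0.058, and 94 lay within 0.3 of 0. Single-symbol and several-symbol probe sets together held from 9.83 to 11.6% of all signal in an array.

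Of the ribosomal genes outside the symbol rule, 6 were tested and 0 passed. Rps3a1, the small subunit gene with a number added to its symbol, averaged 12795.4 ± 533.9 in control and 13104.1 ± 328.9 in mutant arrays (SD, n = 3 each), and the log2 difference was 0.035. Fau, whose product yields a small subunit protein, had 0.077, the paralogue Rpl22l1 0.081 and Rps27l, a paralogue induced by p53, 0.31 (SE 0.28), with mutant 8711 above the other arrays. Rpl7l1, which acts in ribosome assembly, had 1012.7, 856.5 and 908.3 across the control and 624.6, 648.8 and 761.2 across the mutant arrays, without overlap, a difference of -0.45 (SE 0.18) with an adjusted p of 0.852.

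The other genes of translation also gave no call, and their medians lay on both sides of 0. Of 76 genes listed as mitochondrial ribosomal proteins, 53 were higher, with a median of 0.11. The median by array was 0.47 in mutant 8711 and between -0.15 and 0.12 in the other 5, and without mutant 8711 it was -0.031. Mrps36 had a difference of 0.71 (SE 0.31) and Mrpl12 of -0.51 (SE 0.19).

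Of 49 genes of ribosome assembly, 34 were lower in the mutants, with a median of -0.092, and 0 passed. All 3 mutant arrays were below all controls in 8 (16.3%), against 5.45% of the genes tested. Fbl, the methyltransferase of ribosomal RNA, had 1532.3 in the controls and 1123.2 in the mutants, a difference of -0.44 (SE 0.18), and Rrp12 had -0.88 (SE 0.32). By array the list's median was 0.098 in mutant 8711 and -0.22 and -0.20 in mutants 9216 and 9266, and without mutant 8711 it was -0.22. For the cytosolic ribosomal proteins the same arrays had medians of 0.14, -0.058 and 0.027.

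Among 30 initiation factors the median was -0.013, and Eif3a and Eif4a1 had differences of -0.54 (SE 0.17) and -0.56 (SE 0.22). The 13 elongation and termination genes had -0.083, with Eef2 at -0.87 (SE 0.40) and Eif5a at -1.02 (SE 0.55), the 18 aminoacyl-tRNA synthetases -0.097, with Vars at -1.87 (SE 1.04) and Wars at -0.88 (SE 0.52), and the 21 genes of RNA polymerases I and III and their factors 0.002, with Polr1a at -0.82 (SE 0.40) and Tcof1 at -0.39 (SE 0.27). In the mTOR and Myc list of 19 genes the median was -0.077. Myc, which drives ribosome production, had a difference of -0.82 (SE 0.29), with means of 244.8 and 139.8, and Larp1, which binds TOP messengers, of -0.48 (SE 0.21). The p53 response list of 17 genes had 0.12, with Trp53inp1 at 0.63 (SE 0.27) and Plk2 at -0.53 (SE 0.28). No gene in these lists passed. In Eif3a, Eef2, Eif5a, Vars, Wars, Polr1a and Tcof1 mutant 8711 was the lowest of the 6 arrays. Without that array the differences were -0.41 for Eif3a, -0.40 for Eef2, -0.32 for Eif5a, -0.62 for Vars, -0.25 for Wars, -0.37 for Polr1a and -0.19 for Tcof1, and the medians were -0.081 for initiation, -0.15 for elongation and termination, -0.17 for the synthetases, -0.046 for the polymerases, -0.057 for mTOR and Myc and -0.047 for p53.

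**Figure D5:**
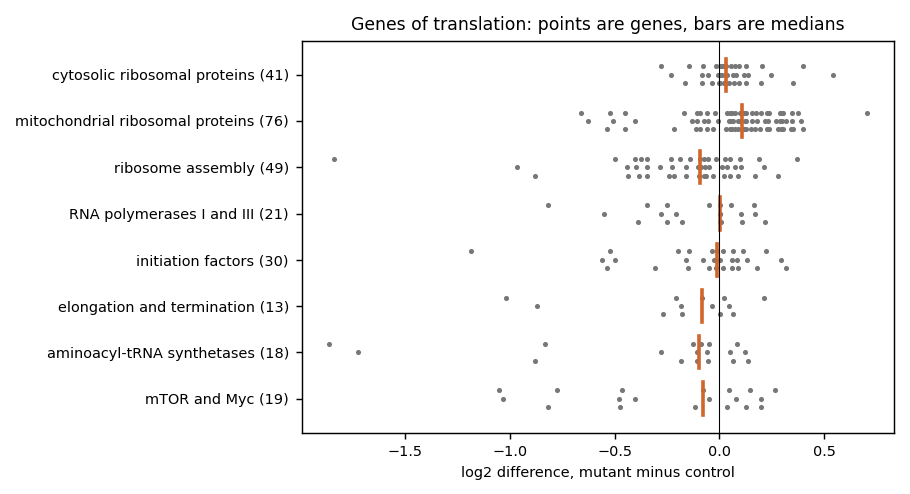
Log2 difference, mutant minus control, of each tested gene in the cytosolic ribosomal protein set and in 7 other lists of translation, with the number of genes in brackets and the median as an orange bar. The cytosolic ribosomal protein genes span -0.28 to 0.54. Each of the other lists except the mitochondrial ribosomal proteins reaches below -0.8.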

How the data were processed

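The deposited values are linear intensity values of 45101 probe sets on 6 arrays. Per the labels, RNA was extracted with Trizol and labelled with biotin from total RNA, and the submitters' processing notes name MAS5. Its version is not given in the sources used here. No further scaling was applied to the authors' deposited intensities. Of 45037 probe sets that are no manufacturer controls, 34945 had 1 symbol in the platform annotation, 932 several and 9160 none. Values were transformed as log2(value + 1.7), so fold changes of dim genes are understated, and probe sets with a mean under the 40th percentile (4.07, a linear 15.1) were left out, leaving 27022. Groups were compared with limma 3.58.1 (trend and robust, R 4.3.3), with Benjamini-Hochberg adjustment over all probe sets and a threshold of 0.05, checked on simulated data. Genes outside the members were represented by their brightest tested probe set. The number of arrays limits the precision.

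Members, lists and the naming rule were chosen with earlier results of these data known: the brightest and dimmest members, the largest differences in each direction, those without overlap, those with the widest control spread or probe sets of opposite sign, a few fixed members, and the 2 smallest p of each list. Rpl4, Rpl19, Rpl38, Fau, Rps3a1, Rpl22l1 and the individual further probe sets, and the comparison of probe sets with several symbols, were chosen after the values were seen. Figures were drawn with matplotlib 3.10.9.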

Additional observations from a re-analysis of the deposited data

How the results depend on the processing

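No member passed under any of the settings tried (other added values, scalings, filters, variance models, array weights, other probe sets and leaving out arrays). With 1 array left out, the count of members higher in the mutants ran from 19 (without control 9216) to 31, and without both 8711 arrays it was 11. Median centring gave medians of 0.14 over all members and 0.15 for the small subunit. Array weights called 184 probe sets of all genes, 0 of them members. The weights were 5.98, 0.625 and 1.52 for controls 8711, 9216 and 9266, so control 8711 counted most. They were 0.151, 1.59 and 0.734 for the mutants in that order. Leaving out mutant 8711 or both 8711 arrays called 1 probe set, with a range of 0 to 1 over single arrays. Many single differences changed sign, among them the wider ones of Rps27, Rps9, Rps15, Rps24 and Rps27l. With array weights Rpl11 had -0.007, Rpl13a -0.027, Rpl22 -0.079, Rpl27a 0.485, Rpl37a -0.09, Rpl41 -0.105, Rpl6 0.013, Rplp2 -0.11, Rps10 -0.271, Rps14 0.013, Rps25 -0.096, Rps4x 0.02 and Rps6 -0.062. With the mean of all probe sets Rpl13a had -0.029, Rpl22 -0.308, Rpl37a -0.085, Rpl41 -0.266, Rps10 -0.175 and Rps9 -0.084. With median centring Rpl27a had 0.077, Rpl6 0.096, Rpl8 0.035, Rplp0 0.029, Rps18 0.107, Rps2 0.03, Rps4x 0.11 and Rpsa 0.057. Without _x_at probe sets, where 36 members were left, Rpl13a had -0.227, Rpl41 -0.471, Rps24 -0.143 and Rps9 -0.072. With quantile normalization Rpl22 had -0.011, Rpl27a 0.103, Rpl37a -0.016, Rps10 -0.027 and Rps7 -0.014. Without both 8711 arrays Rpl11 had -0.054, Rpl22 -0.01, Rpl27a 0.343, Rpl35 -0.038, Rpl37a -0.029, Rpl41 -0.032, Rplp2 -0.092, Rps10 -0.023, Rps15 -0.154, Rps25 -0.013, Rps28 -0.023, Rps6 -0.25, Rps7 -0.011, Rps9 -0.076 and Rps27l -0.038. With 1 array left out the ranges were -0.033 to 0.225 for Rpl11, -0.021 to 0.078 for Rpl13a, -0.081 to 0.121 for Rpl22, -0.272 to 0.434 for Rpl27a, -0.057 to 0.093 for Rpl37a, -0.104 to 0.154 for Rpl41, -0.051 to 0.044 for Rpl6, -0.083 to 0.177 for Rplp2, -0.191 to 0.22 for Rps10, -0.234 to 0.016 for Rps14, -0.063 to 0.068 for Rps18, -0.076 to 0.263 for Rps25, -0.189 to 0.855 for Rps27, -0.011 to 0.108 for Rps28, -0.034 to 0.039 for Rps4x, -0.184 to 0.37 for Rps6, -0.03 to 0.084 for Rps7, -0.139 to 0.043 for Rpsa and -0.011 to 0.482 for Rps27l. The cause of these changes was not tested.

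Arrays with the same title number did not all deviate together: over all probe sets the correlation of their deviations from the group means was 0.0493 for 8711, 0.481 for 9216 and -0.113 for 9266. With the title number as a replicate block 0 members and 0 probe sets passed, and the median stayed at 0.031.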
